A study of Rattus norvegicus with 39 samples.

Results

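The ageing of the calorie-restricted rat cerebral cortex was examined by comparing the 3 RNA pools of rats restricted to 6 months of age (6 m CR) with the 3 pools of rats restricted to 28 months of age (28 m CR). These 6 libraries were chosen by their labels alone, from 39 libraries in 13 groups of age and diet. All were male BN rats (BN/SsNOlaHSD) fed ad libitum (AL) until 2 months of age and then housed singly. CR rats received 55% of the daily intake of control rats, given once each morning, so the 28 m CR animals had been restricted for far longer as well as being older, and age and length of restriction cannot be told apart. Each pool joined the RNA of 2 rats, which limits the comparison to 3 independent values an age. The 3 pools each of 12 m CR, 6 m AL and 28 m AL are given beside them where they bear on a result. AL rats had free access to the same unsupplemented diet. No library of these groups received lipoic acid. Libraries that did entered the choice of genes tested, the scaling of levels, the fits of all 13 groups together and the values shown for the 13 groups.

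MHC class II molecules hold fragments of ingested protein on the cell surface for helper T cells. Each is a pair of an alpha and a beta chain, and in the rat the RT1-B and RT1-D loci encode them. The invariant chain Cd74 guides the pair to the endosome, where cathepsin S cuts it away. In brain tissue these genes are expressed mainly by microglia, perivascular macrophages and other myeloid cells, and microglia of old animals are known to carry more of them. Complement tags cells and synapses for removal by the same phagocytes, whereas inducible heat shock proteins refold damaged proteins after stress.

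In the CR cortex, 5 MHC class II genes and the complement gene C3 were higher at 28 months than at 6 months, and both identifiers of the inducible chaperone Hspa1b were lower. These made up 8 of the 9 genes that passed the test across all 17230 genes tested, by edgeR's quasi-likelihood test at a Benjamini-Hochberg adjusted p under 0.05, and the ninth had no name in the sources used here. The 9 genes are 0.0522% of the genes tested, with 7 higher (0.0406%) and 2 lower (0.0116%) at 28 months. Without adjustment, 378 genes were higher (2.19%) and 461 lower (2.68%) at a p under 0.05. The 3 pools of one age lay entirely above those of the other for 877 genes higher at 28 months (5.09%) and for 833 lower (4.83%). The number called was 19, 17 and 20 when 6 m CR pool 10, 11 or 12 was left out, and 11, 8 and 7 without 28 m CR pool 16, 17 or 18.

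The 6 libraries held between 2661799 and 5614861 reads on genes, so that 1 CPM, the unit of reads of a gene scaled to the size of its library, stood for about 2.66 to 5.61 reads. Levels are in CPM scaled by TMM over all 39 libraries and are not divided by gene length, so they are compared between samples of a gene and not between genes. The 6 m CR pools stood further apart from each other, as a chi-square statistic over its degrees of freedom of 12.2 to 50.05 between any pair of them showed, than the 28 m CR pools did, at 5.54 to 7.64. Reads from the 28S ribosomal RNA gene Rn28s took 0.779%, 0.253% and 3.31% of the gene reads in 6 m CR pools 10, 11 and 12, against 2.94%, 2.98% and 3.13% in 28 m CR pools 16, 17 and 18. Pool 10 held more RNA of the thalamic markers Prkcd and Tcf7l2, whose summed level was 232 CPM there, 43.1 CPM in pool 11 and 125 CPM in pool 12. The summed thalamic level at 28 months was 26.9 to 85.3 CPM. Of 57 genes tested that had no read in any 28 m CR pool, 6 reached 5 CPM in a 6 m CR pool, and 5 of those were highest in pool 11. The results below are given with these pools in view, and their part in any difference was not tested unless a value without the pool is given.

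The largest fold changes of the 9 genes called were those of the 5 MHC class II genes. Cd74 stood at 12.8, 8.75 and 17.6 CPM in the 3 pools of 6 m CR, and at 75.8, 82.2 and 93.0 CPM in those of 28 m CR. Every 28 m CR pool was thus more than 4 times the highest 6 m CR pool. The log2 fold change was 2.75 (SE 0.20, adjusted p = 4.39e-06), or 6.70-fold. The values rested on 42 to 43 Cd74 reads in each young pool and on 313 to 481 in each old one.

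RT1-Ba, the alpha chain of RT1-B, measured 13.1, 6.92 and 5.31 CPM at 6 months and 59.8, 54.8 and 78.7 CPM at 28 months. The log2 fold change was 2.92 (SE 0.25, adjusted p = 1.04e-05). Its partner RT1-Bb, the beta chain, measured 6.09, 2.64 and 3.68 CPM at 6 months against 25.7, 20.4 and 23.8 CPM at 28 months. The log2 fold change of RT1-Bb was 2.53 (SE 0.28, adjusted p = 0.000322). Both chains of RT1-B were therefore higher in each old pool than in any young pool.

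The RT1-D chains went the same way. RT1-Da, the alpha chain, was at 7.00, 3.05 and 8.17 CPM in 6 m CR and at 48.5, 35.9 and 55.1 CPM in 28 m CR, a log2 fold change of 3.04 (SE 0.28, adjusted p = 2.40e-05). RT1-Db1, a beta chain, had the largest fold change of the 9 genes called, from 4.56, 2.03 and 3.68 CPM to 35.9, 26.2 and 40.8 CPM. Its log2 fold change was 3.39 (SE 0.29, adjusted p = 1.04e-05), or 10.5-fold, but it started from only 9 to 15 reads a pool. The class II chains belong to a family of similar genes, and reads that mapped to more than one place were not counted, so part of their signal may be missing.

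**Figure D1:**
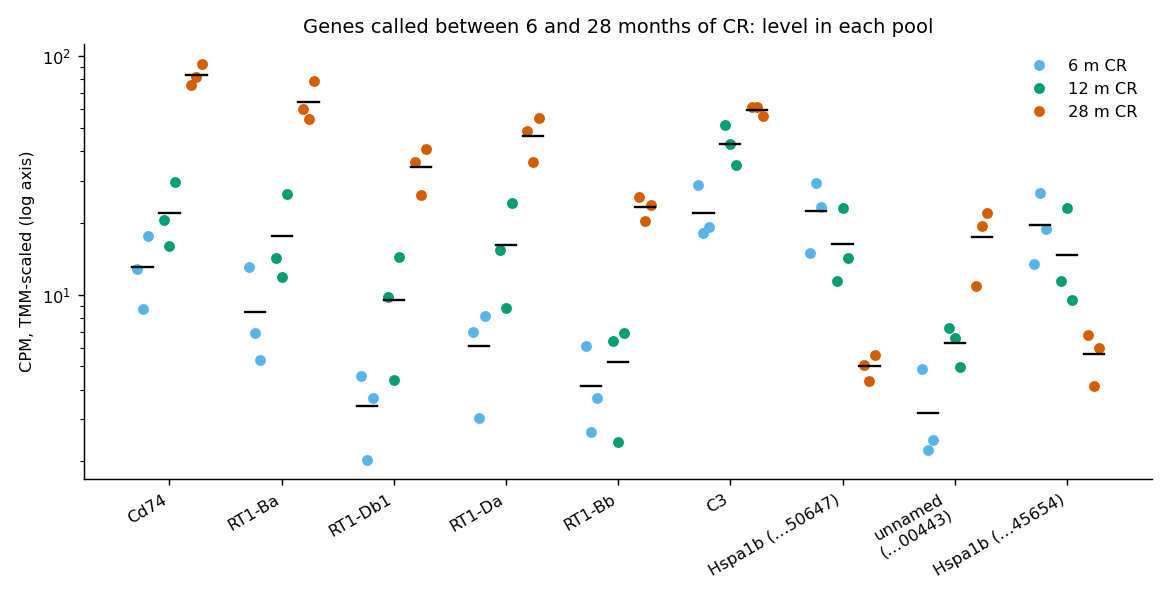
Level in CPM (log axis) of the 9 genes called between 6 and 28 months of CR, with 1 point for each pool and a line at the mean of 3 pools; the numbers in brackets are the last digits of the gene identifier. The 5 MHC class II genes, C3 and the unnamed gene are higher in all 28 m CR pools (orange) than in any 6 m CR pool (blue), both Hspa1b identifiers are lower, and Cd74 at 12 months (green) sits at 16.05 to 29.6 CPM, well under the 75.8 to 93.0 CPM of 28 months.

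Cathepsin S (Ctss), the protease that removes the invariant chain, was the other measured member of the class II list. It stood at 175, 155 and 223 CPM at 6 months and at 231, 278 and 267 CPM at 28 months. Its log2 difference of 0.49 (SE 0.15) did not pass the test (adjusted p = 0.711), although the pools did not overlap. Of the 6 measured genes of the list, 5 passed the test and all 6 lay apart, with a median log2 difference of 2.83 against 0.0015 over all genes tested. The other genes of the list, among them the class II transactivator Ciita, had no identifier named in the sources used here. Names came from tables of genes the study had listed on these libraries, so the named genes are not a random draw from the genes tested. Of the 1672 named genes, 5.56% were higher and 4.19% lower at an unadjusted p under 0.05. The pools lay apart for 7.3% that were higher and 3.95% that were lower, and 944 had a log2 difference above 0. These shares belong beside the counts of list members given below.

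The same 5 class II genes passed the test when any 1 of the 6 pools was left out. Across those 6 fits the log2 fold change of Cd74 ran from 2.48 to 2.99 and that of RT1-Bb from 2.21 to 2.93.

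Class II promoters share a compact control module, in which the X1 box is bound by the RFX complex and the Y box, an inverted CCAAT motif, by NF-Y, together forming the platform for Ciita. The stretch from 130 to 21 bases before the RefSeq start (GRCr8) is shown for the 5 genes called, to let the module be seen beside their shared change. Capitals mark the letters AGCAAC (X1 core) and ATTGG (Y core) or their reverse complements GTTGCT and CCAAT, searched on both strands.
Cd74, chr18:56527076-56527185, plus strand: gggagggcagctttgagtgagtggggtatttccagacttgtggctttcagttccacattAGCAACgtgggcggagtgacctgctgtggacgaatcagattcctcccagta
RT1-Ba, chr20:4576927-4577036, plus strand: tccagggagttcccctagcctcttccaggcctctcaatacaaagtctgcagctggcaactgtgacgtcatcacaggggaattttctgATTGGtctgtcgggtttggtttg
RT1-Bb, chr20:4604139-4604248, minus strand: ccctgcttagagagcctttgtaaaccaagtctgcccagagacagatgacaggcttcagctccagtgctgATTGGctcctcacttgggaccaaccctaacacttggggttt
RT1-Da, chr20:4515285-4515394, plus strand: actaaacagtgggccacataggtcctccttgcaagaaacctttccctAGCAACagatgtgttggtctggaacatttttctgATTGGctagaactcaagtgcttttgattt
RT1-Db1, chr20:4560183-4560292, minus strand: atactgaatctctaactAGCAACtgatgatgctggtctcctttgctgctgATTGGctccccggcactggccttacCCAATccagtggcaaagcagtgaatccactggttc

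RT1-Da and RT1-Db1 held both motifs in this stretch, with AGCAAC ahead of ATTGG. Cd74 held only the X1 letters, at -71 to -66, and RT1-Ba and RT1-Bb only the Y letters. Among all 33469 RefSeq promoter windows, 19% held the Y letters in the same 110 bases, 5.55% the X1 letters and 1.03% both. These are matches of letters, not bound sites. C3 held none of the motifs searched in its 300-base window, where the heat shock element core GAANNTTC is found in 8.59% of all windows, the interferon response core GAAANNGAA in 9.71% and the STAT core TTCNNNGAA in 8.87%.

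At 12 months of CR, the intermediate age, the class II levels were closer to those of 6 months. Cd74 was at 20.7, 16.05 and 29.6 CPM in 12 m CR, and RT1-Bb at 6.42, 2.42 and 6.87 CPM. For each of the 5 genes called, every 12 m CR pool was below every 28 m CR pool, whereas the 12 m and 6 m CR pools overlapped for 4 of the 5, RT1-Da being the exception. RT1-Da at 12 months was 15.4, 8.79 and 24.2 CPM. These 12-month values are a description with no test.

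C3, the central protein of the complement cascade, rose from 28.9, 18.1 and 19.2 CPM to 61.3, 61.1 and 56.1 CPM. Its log2 fold change was 1.43 (SE 0.18, adjusted p = 0.00122), or 2.70-fold, and the call held without each of the 6 pools. At 12 months of CR, C3 lay between the other ages without overlap with either, as RT1-Da did, at 51.4, 42.9 and 34.8 CPM. C3 was the only 1 of 6 measured complement genes to pass. At an unadjusted p under 0.05, 5 of the 6 were higher, against 5.56% of named genes. The pools of 4 lay apart, against 7.3% of named genes, and the list median log2 difference was 0.84.

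Other complement genes are given as values. C2, which forms the C3 convertase of the classical pathway, stood at 16.1, 15.3 and 14.3 CPM at 6 months and 33.7, 25.7 and 27.3 CPM at 28 months (log2 difference 0.91, SE 0.19, adjusted p = 0.142). C1qc, a chain of the C1q recognition molecule made by microglia, was at 14.9, 12.8 and 13.9 CPM and then at 22.05, 27.1 and 28.0 CPM (0.90, SE 0.19, adjusted p = 0.179). The C1 inhibitor Serping1 had a log2 difference of 0.77 (SE 0.35) with overlapping pools. Clusterin (Clu), abundant in astrocytes, differed by 0.03 (SE 0.14).

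Interferon-induced genes and MHC class I genes lay in the same direction without passing the test. Ifi27, which is induced by interferon, came closest of all named genes, from 11.9, 15.1 and 14.7 CPM to 28.1, 29.3 and 29.4 CPM (log2 difference 1.05, SE 0.18, adjusted p = 0.0509). The antiviral GTPase Mx2 (0.60, SE 0.21) and Parp14 (0.46, SE 0.21) were the other members of 7 measured with an unadjusted p under 0.05, and the list median was 0.46. The class I heavy chain RT1-A1 was at 49.6, 30.1 and 40.9 CPM at 6 months and 77.3, 69.3 and 61.7 CPM at 28 months (0.80, SE 0.17, adjusted p = 0.186). RT1-A2, another class I gene, differed by 0.87 (SE 0.23, adjusted p = 0.562), whereas the chaperone Pdia3 of the class I loading complex was at -0.11 (SE 0.14). Ifi27 passed at an adjusted p of 0.0202 by DESeq2 and 0.019 with all 13 groups in one fit.

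**Figure D2:**
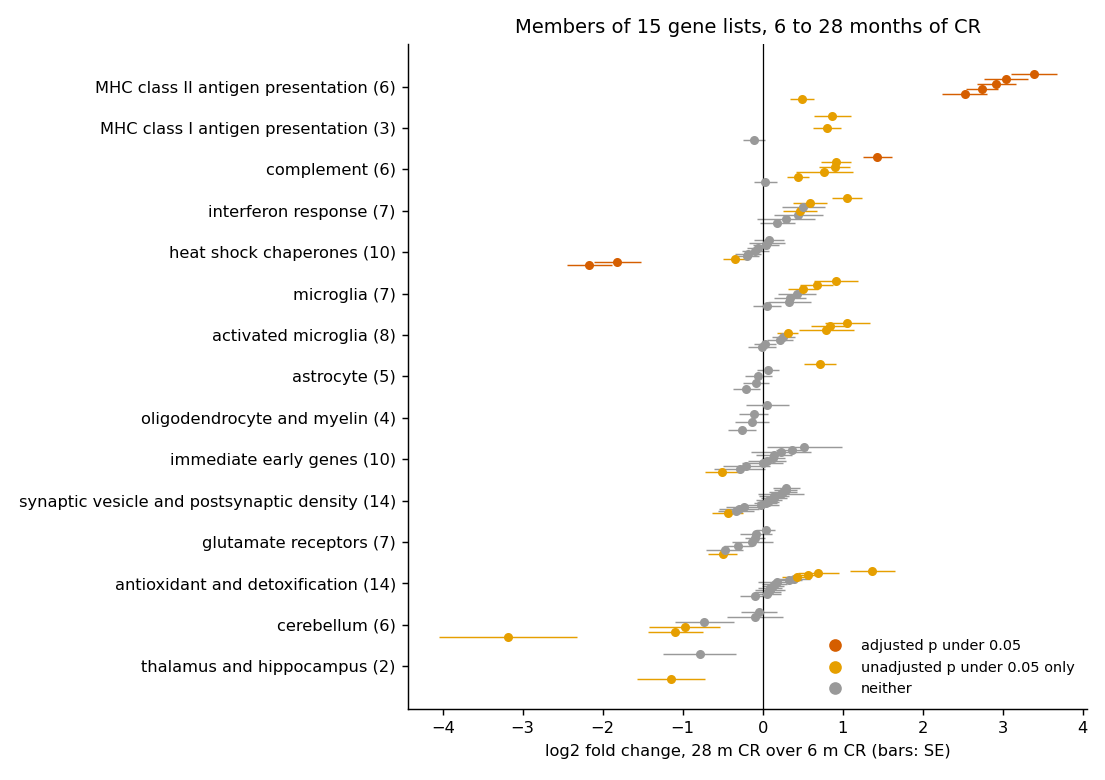
Log2 fold change (28 m CR over 6 m CR, bars are SE) of each measured member of 15 gene lists, with the number of members in brackets; orange-red points passed the adjusted threshold and yellow points had an unadjusted p under 0.05 only. Of 6 class II genes, 5 lie between 2.53 and 3.39, complement and interferon genes lie mostly above 0, and the 2 Hspa1b identifiers lie near -2 while the other chaperones lie between -0.34 and 0.08.

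Markers of microglia lay in the same direction as these genes, with smaller values. Of 7 measured markers none passed, and 3 had an unadjusted p under 0.05, all higher, against 5.56% of named genes. All 7 log2 differences were above 0, as were 944 of the 1672 named genes, with a list median of 0.42 and a range of 0.05 to 0.92. The summed level of the 7 was 105.6, 91.3 and 103.8 CPM in the young pools and 120.4, 132.8 and 143.3 CPM in the old pools, without overlap. The largest differences were those of the integrin Itgam (0.92, SE 0.27) and of Aif1, which encodes Iba1 (0.67, SE 0.20). The homeostatic marker Tmem119 was at 21.6, 22.2 and 22.1 CPM and then at 20.6, 22.1 and 25.5 CPM, a log2 difference of 0.05 (SE 0.18). The pan-leukocyte gene Ptprc differed by 0.34 (SE 0.27) with overlapping pools. In bulk tissue, more cells of a type and more RNA per cell cannot be told apart, and the part of microglial number in the class II result was not tested.

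Among genes of activated microglia, 4 of 8 had an unadjusted p under 0.05, all higher, and none passed. Gpnmb, a lysosomal glycoprotein, was at 7.61, 5.09 and 7.76 CPM at 6 months and at 12.4, 17.9 and 11.4 CPM at 28 months (log2 difference 1.06, SE 0.28, adjusted p = 0.562). The cathepsin Ctsz differed by 0.84 (SE 0.24) and Ctsb by 0.31 (SE 0.13), both with separate pools. The lipid carrier Apoe (0.03, SE 0.14) and the lysozyme Lyz2 (-0.01, SE 0.18) had the smallest differences. Flt3, the only measured member of the perivascular macrophage, dendritic cell and monocyte list, was at 9.48 to 15.8 CPM at 28 months and overlapped with 6 months. No marker of lymphocytes or of endothelium had a named identifier, so cells of these kinds were not assessed.

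The gene without a name, ENSRNOG00000000443, followed the same course from 4.87, 2.24 and 2.45 CPM to 10.9, 19.4 and 22.05 CPM. Its log2 fold change was 2.47 (SE 0.35, adjusted p = 0.00537), on 6 to 16 reads in each young pool. The call was lost without 28 m CR pool 18 (adjusted p = 0.144).

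The genes that fell were both listed as Hspa1b, which encodes the stress-inducible Hsp70. Identifier ENSRNOG00000050647 was at 14.9, 29.3 and 23.3 CPM in 6 m CR and at 5.09, 4.36 and 5.61 CPM in 28 m CR. Its log2 fold change was -2.17 (SE 0.28, adjusted p = 0.00157). Identifier ENSRNOG00000045654 was at 13.4, 26.6 and 18.8 CPM and then at 6.78, 4.12 and 6.00 CPM, a log2 fold change of -1.82 (SE 0.29, adjusted p = 0.0193). The Hsp70 genes are near-identical copies, so how reads were split between the identifiers is uncertain, and they are not independent evidence.

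The second Hspa1b identifier did not pass without 6 m CR pool 11, 28 m CR pool 17 or 28 m CR pool 18, where its adjusted p reached 0.255. Neither identifier passed when all 13 groups shared one estimate of spread (adjusted p = 0.0508 and 0.26). At 12 months of CR the first identifier was at 11.4, 23.1 and 14.2 CPM, overlapping with 6 months and above every 28 m CR pool. The promoter table held no entry for Hspa1b.

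The other chaperones gave smaller values than Hspa1b. Of 10 measured identifiers, 2 passed and 1 further, Hsph1, had an unadjusted p under 0.05. Hsph1, a nucleotide exchange factor for Hsp70, was at 320, 430 and 472 CPM at 6 months and 292, 344 and 329 CPM at 28 months (log2 difference -0.34, SE 0.15). The list median was -0.14. The small heat shock protein Cryab (0.08, SE 0.19), the mitochondrial Hspe1 (-0.09, SE 0.17) and the co-chaperone Stip1 (-0.20, SE 0.15) overlapped between the ages.

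Among named genes that did not pass but whose pools lay apart, 5 with the smallest p were lower at 28 months. Ndn, an imprinted neuronal growth suppressor, was at 198, 246 and 199 CPM at 6 months and 122, 140 and 141 CPM at 28 months (log2 difference -0.68, SE 0.13, adjusted p = 0.123). Its adjusted p was 0.00368 by DESeq2. Another imprinted gene, Nnat, was at 202, 114 and 183 CPM and then at 67.4, 134 and 103 CPM (-0.70, SE 0.22, adjusted p = 0.776), with overlap. Hap1, the huntingtin-associated protein and a marker of hypothalamus in the lists used here, was at 80.3, 54.7 and 50.3 CPM and then at 37.6, 36.6 and 32.5 CPM (-0.80, SE 0.17, adjusted p = 0.186). The calcium release channel Ryr3 (-0.55, SE 0.14), Mfhas1 (-0.62, SE 0.16) and AW551984 (-0.90, SE 0.23) were the remaining ones. On the higher side stood Ifi27, C2, C1qc and RT1-A1, given above.

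Markers of cerebellum and thalamus were unevenly spread over the young pools and lay lower at 28 months. The 1 measured marker of striatum (log2 difference -0.10) and the 1 of meninges (-0.02) overlapped between the ages. All 6 cerebellar genes measured were lower, with a median log2 difference of -0.85. Of them, 3 had an unadjusted p under 0.05, against 4.19% of named genes, and none passed. Both thalamic markers were lower, with a median of -0.97, overlapping pools and 1 unadjusted p under 0.05. Cerebellar genes summed to 51.4, 61.0 and 81.3 CPM in 6 m CR and to 41.7, 42.7 and 45.3 CPM in 28 m CR. Gabra6, which marks cerebellar granule cells, had 0 reads in pool 10, 46 in pool 11 and 23 in pool 12. Its adjusted p of 0.572 became 0.00172 when pool 10 was left out. Prkcd was at 177, 31.5 and 87.4 CPM at 6 months and 19.6, 51.9 and 59.6 CPM at 28 months, and its adjusted p went from 0.896 to 0.0414 without pool 11. Calb2, found in interneurons and in the thalamus, behaved in the same way, from 0.695 to 0.0135 without pool 11. The choroid plexus gene Aqp1 was at 30.4 CPM in pool 10 and at 7.16 to 16.5 CPM in the other 5 pools.

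**Figure D3:**
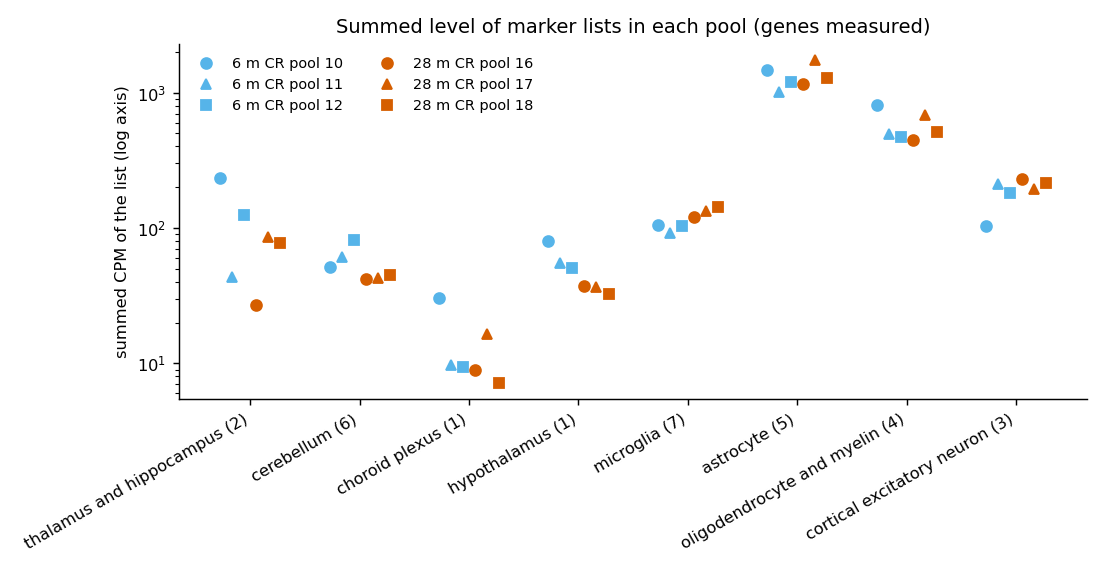
Summed CPM (log axis) of 8 marker lists in each of the 6 pools, blue for 6 m CR and orange for 28 m CR, with the number of genes measured in brackets. The 6 m CR pools spread from 43.1 to 232 CPM for the thalamic list. The microglial list is 91.3 to 105.6 CPM at 6 months and 120.4 to 143.3 CPM at 28 months. The astrocyte and myelin lists overlap between the ages.

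No marker of astrocytes, myelin, excitatory neurons or interneurons passed the test. The excitatory neuron genes Neurod6 and Nrgn were at 32.6 to 77.8 CPM and 68.2 to 164.5 CPM over the 6 pools, so that cortical neuron RNA was present in each. The astrocyte gene Gfap, an intermediate filament protein that increases in reactive astrocytes, was at 414, 257 and 285 CPM at 6 months and 390, 696 and 484 CPM at 28 months. The log2 difference of 0.72 (SE 0.20) did not pass (adjusted p = 0.650) and the pools overlapped. Of 7 interneuron markers, 1 had an unadjusted p under 0.05, Calb2, which was lower at 28 months with overlapping pools (-1.14, SE 0.33). The other 4 measured astrocyte markers lay between -0.20 and 0.06. The 4 myelin genes lay between -0.26 and 0.06, and in pool 10 their sum of 816 CPM was the highest of the 6 pools. Of 3 excitatory neuron markers, Neurod6 differed by 0.44 (SE 0.20) and the list sum was lowest in pool 10, at 103 CPM against 182 to 231 CPM in the other 5 pools.

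Few synaptic or activity-dependent genes had an unadjusted p under 0.05. Of 14 synaptic identifiers, 1 was lower at an unadjusted p under 0.05, the scaffold Shank3 (-0.44, SE 0.19), and the median was 0.07. Of 10 immediate early genes, 1 was lower, Nr4a2 (-0.51, SE 0.22), with Arc at -0.00 (SE 0.25) and Egr1 at 0.36 (SE 0.19). None of 8 clock genes had an unadjusted p under 0.05, and Dbp, a clock output gene, differed by 0.16 (SE 0.18). Of the 7 glutamate receptor genes measured, 6 lay below 0, beside 728 of the 1672 named genes, with a median of -0.13. At an unadjusted p under 0.05, 1 was lower, and the pools of 1 lay apart in that direction. In none of these lists did a gene pass the adjusted test.

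Detoxification genes had mostly positive differences, none of which passed the adjusted test. Of 14 measured, 13 had a log2 difference above 0, beside 944 of the 1672 named genes. An unadjusted p under 0.05 was found for 4, Gsta1, Mt2A and Por among them, against 5.56% of named genes higher. The list median was 0.16. Gsta1, a glutathione transferase, was at 54.8, 65.5 and 68.2 CPM and then at 79.9, 103.5 and 96.7 CPM (0.57, SE 0.14, adjusted p = 0.504). The metallothionein Mt2A differed by 0.70 (SE 0.26) with overlapping pools. Genes of fasting and glucocorticoid response, which track food intake, had no member with an unadjusted p under 0.05 among 5, the nearest being Cdkn1a (-0.50, SE 0.24) and Txnip (0.36, SE 0.17). Sparc, a matrix glycoprotein, was the lowest of 7 matrix genes (-0.52, SE 0.17, adjusted p = 0.785), and its pools overlapped.

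The question whether these changes differ between diets was addressed by the interaction of age and diet over the 12 libraries of 6 m AL, 28 m AL, 6 m CR and 28 m CR. Under AL feeding, 17 genes passed between 6 and 28 months (0.0987%), and 2 of them, the Hspa1b identifiers, were among the 9 called under CR. The interaction passed for 2 genes, or 0.0116% of those tested, and 1424 had an unadjusted p under 0.05. No MHC class II gene was among the 2. The number called was 0 without 6 m AL pool 1 or 2, 28 m AL pool 7 or 9, 6 m CR pool 11, or 28 m CR pool 17 or 18, and it was 1 without 28 m CR pool 16, 4 without 6 m AL pool 3, 9 without 28 m AL pool 8 and 19 without 6 m CR pool 12.

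Cd74 in AL rats was at 20.8, 26.9 and 16.7 CPM at 6 months and at 20.6, 46.7 and 25.7 CPM at 28 months. Its log2 difference of 0.53 (SE 0.29, adjusted p = 0.504) was the smallest of the 5 class II genes under AL. RT1-Ba differed by 0.65 (SE 0.28), RT1-Da by 0.94 (SE 0.30) and RT1-Bb by 0.97 (SE 0.53). RT1-Db1 differed most, by 1.63 (SE 0.37, adjusted p = 0.123), from 4.26, 6.12 and 2.92 CPM to 10.8, 18.3 and 11.8 CPM. The AL pools of RT1-Db1 and RT1-Da lay apart between the ages, but no class II gene passed under AL. The interaction, the CR change minus the AL change, was 2.21 for Cd74 (SE 0.39, adjusted p = 0.0654) and 2.28 for RT1-Ba (SE 0.40, adjusted p = 0.0654). It was 2.09 for RT1-Da (SE 0.43, adjusted p = 0.207), 1.75 for RT1-Db1 (SE 0.49, adjusted p = 0.406) and 1.54 for RT1-Bb (SE 0.64, adjusted p = 0.556). All 5 were above 0 and none passed. By DESeq2 those of Cd74, RT1-Ba and RT1-Da passed, with adjusted p-values of 0.000274, 0.000229 and 0.0071.

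Hspa1b fell under both diets. Identifier ENSRNOG00000050647 had a log2 fold change of -3.60 under AL (SE 0.53, adjusted p = 0.029) and of -2.17 under CR, and the interaction of 1.44 (SE 0.70) did not pass (adjusted p = 0.607). The 6 m AL pools of this gene ranged widely, at 11.1, 68.0 and 33.7 CPM. C1qc had almost equal differences of 0.90 under CR and 0.89 under AL, with an interaction of 0.01 (SE 0.39). Ctss differed by 0.66 under AL (SE 0.16), close to the 0.49 under CR.

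The 2 genes whose interaction passed were Gfap and Dbndd2, named here after their values were seen. Gfap in AL rats was at 422, 384 and 347 CPM at 6 months and 140, 203 and 171 CPM at 28 months, a log2 fold change of -1.16 (SE 0.18, adjusted p = 0.029), so that its interaction was 1.88 (SE 0.29, adjusted p = 0.0456). Dbndd2 was at 73.0, 76.7 and 60.5 CPM in 6 m CR, 86.7, 100.1 and 91.1 CPM in 28 m CR, 78.6, 58.8 and 66.8 CPM in 6 m AL and 31.2, 36 and 37.7 CPM in 28 m AL. Its interaction was 1.36 (SE 0.22, adjusted p = 0.0484).

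**Figure D4:**
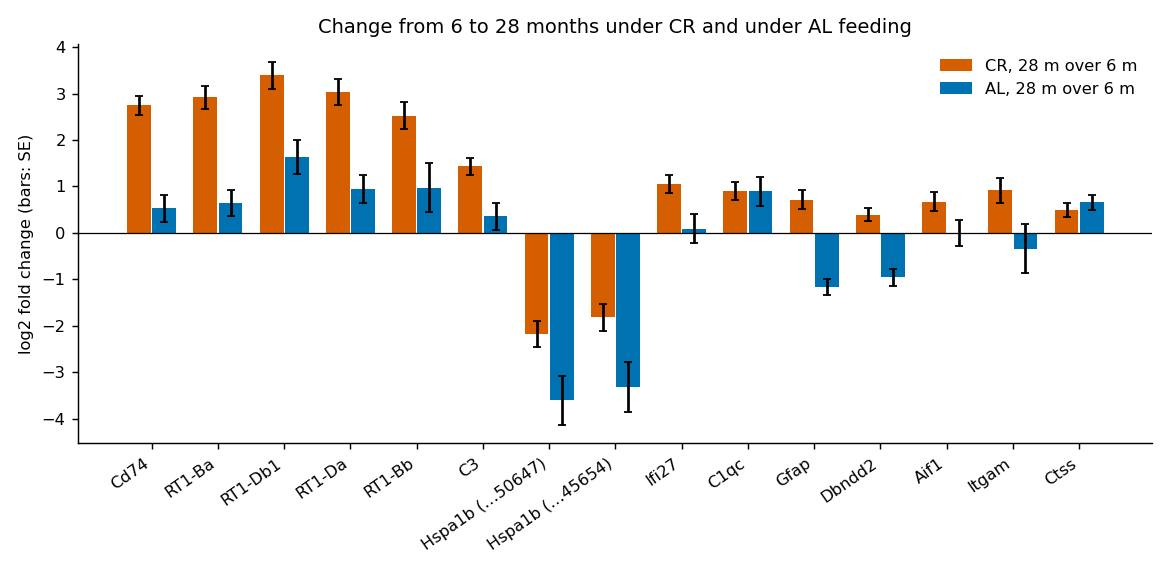
Log2 fold change from 6 to 28 months under CR (orange) and under AL feeding (blue) for the 8 named identifiers called under CR, the 2 genes with an interaction that passed (Gfap and Dbndd2) and 5 further immune genes, with SE bars from separate fits of 6 libraries each. The class II bars are 2.53 to 3.39 under CR and 0.53 to 1.63 under AL, Hspa1b is lower under both diets, and Gfap and Dbndd2 have opposite signs.

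The AL libraries used in the interaction differed from the CR libraries in other ways. Cerebellar Gabra6 was at 592 and 531 CPM in 28 m AL pools 7 and 9 and at 337 CPM in 6 m AL pool 2, against 0.290 to 4.97 CPM in the remaining AL pools of these ages and 0 to 9.40 CPM in the CR pools. The share of reads not aligned was 27.5% to 33.2% in these AL libraries and 38.1% to 40.8% in the 6 m and 28 m CR libraries. Leaving out those 3 AL pools kept only pool 8 of 28 m AL, which was then assumed to vary like the other groups. No interaction passed in that fit, and with 1 library in that group the loss of the calls says nothing about the part of the pools left out. The estimates were 1.41 for Cd74, 1.76 for RT1-Ba, 1.625 for RT1-Da, 1.03 for RT1-Db1, 0.045 for RT1-Bb and 0.28 for C3, each lower than with all pools, where C3 had 1.07. They were 1.625 for Gfap and 1.40 for Dbndd2. The diet and these library differences cannot be told apart in the comparison of diets. The CR comparison of ages holds none of these AL libraries, but its own pools were uneven. Gabra6 was at 0 to 9.40 CPM in 6 m CR and at 0.242 to 0.967 CPM in 28 m CR, and the part of such unevenness was not tested.

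Across the 13 groups, Cd74 was low in 6 m AL, 6 m CR, 12 m CR and 28 m AL and high in most others. It was at 100.7, 109.6 and 144.4 CPM in 12 m AL, above the 20.6 to 46.7 CPM of 28 m AL. In the other 28-month groups, fed lipoic acid (LA) or switched between diets at 12 months, the lowest pool was at 38.9 CPM and the highest at 111.9 CPM, so the 28 m CR pools lay within their range. Each pool of 12 m AL was above each pool of 28 m AL for Cd74, C3 and Gfap alike, and 28 m AL had the lowest mean of the 8 groups of 28 months for all of them. The AL changes and the interactions take these labels as given, and whether the 12 m AL and 28 m AL labels are right was not tested. In 12 m AL+LA the 3 pools ran from 12.3 to 89.1 CPM. Hspa1b (ENSRNOG00000050647) was at 14.9 to 29.3 CPM in 6 m CR and at 1.85 to 10.5 CPM in every pool of all 28-month groups. Low levels were not confined to 28 months, as each 12 m AL pool was also under 10.5 CPM, with a median of 4.66 CPM. The other 12-month groups were at 11.4 to 23.1 CPM (12 m CR) and at 9.04 to 34.3 CPM (12 m AL+LA).

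**Figure D5:**
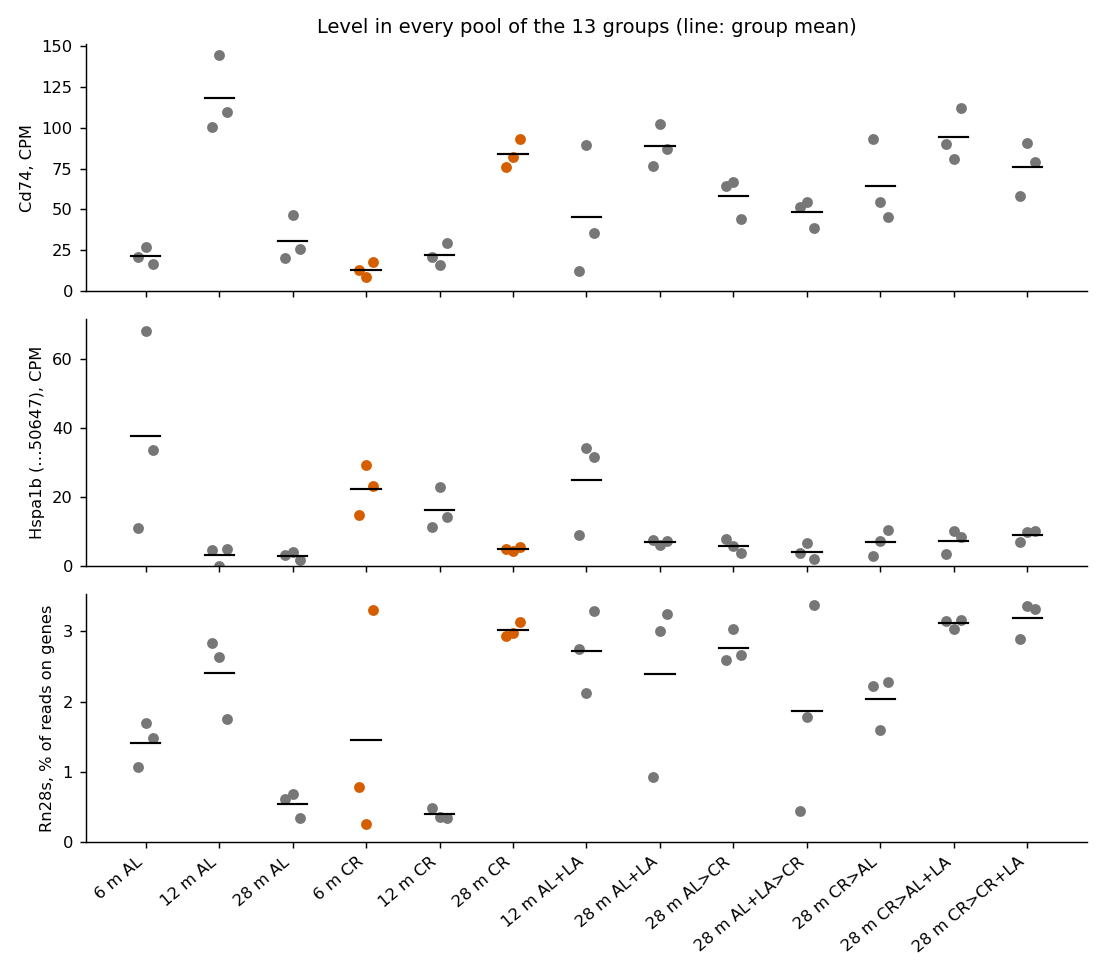
Level of Cd74 and of Hspa1b (the first identifier) in CPM and the share of Rn28s in the reads on genes, in each of 3 pools of the 13 groups, with a line at the group mean and the 6 m and 28 m CR pools in orange. Cd74 goes from 8.75 to 17.6 CPM at 6 m CR to 75.8 to 93.0 CPM at 28 m CR, Hspa1b is at 1.85 to 10.5 CPM in all 28-month pools, and Rn28s varies within 6 m CR from 0.253% to 3.31%. Hspa1b is also low in 12 m AL, with a median of 4.66 CPM.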

How the data were processed

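Total RNA of the cerebral cortex was pooled from 2 rats a library, depleted of ribosomal RNA and sequenced on a SOLiD 5500xl instrument; all RNA integrity numbers were above 8, per the labels. The authors used Bowtie to align the colour-space reads to the Rnor_5.0 (rn5) assembly, dropped reads with more than one place of origin, and tallied those on each Ensembl gene by HTSeq. The deposited values are raw counts, unnormalized, for 26123 genes, and 5 non-gene lines per file were left out here. Reads on no gene, together with the few that could not be given to a single gene, made up 81.5% to 83.4% of the aligned reads in the 6 libraries compared. Whether counting used strand is not given in the sources used here, so a gene and an antisense partner cannot be told apart.

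A gene was tested where 3 or more of the 39 libraries reached 1 CPM, which left 17230 genes. The 3 pools of 6 m CR and the 3 of 28 m CR were compared with edgeR 4.0.16 in R 4.3.3 (TMM scaling, quasi-likelihood F test, 2-sided, Benjamini-Hochberg adjustment over all genes tested), and the age-by-diet interaction was tested in the same way over 12 libraries. The standard error is the log2 fold change over the square root of F. Nothing says whether pools were prepared separately in other respects, so p-values measure the spread between these pools. DESeq2 1.42.0, other scalings, filters, tests and sets of libraries were alternatives. The fits were also run on counts simulated gene by gene, without the uneven pools described above, so those runs do not bear on them. Of the genes listed, 1672 were paired with a name, all through supplementary tables of the study, and none of the identifiers matched through the RefSeq gene table. Promoter stretches are from RefSeq (GRCr8), with 6 of the 7 called gene names matched. Genes were named if called, or among the 5 named genes in each direction with the smallest p whose pools lay apart, or as members of lists of pathways and cell type markers, and from the longer lists only those with the smallest p. A few genes that met these rules are not reported here. Genes and lists were chosen with earlier results of these data known.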

Additional observations from a re-analysis of the deposited data

Results flagged for a closer look

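The change from 6 to 28 months differed between the diets for 2 genes by edgeR's quasi-likelihood test of the interaction. The CR change minus the AL change was 1.88 on the log2 scale for Gfap (adjusted p = 0.0456) and 1.36 for Dbndd2 (adjusted p = 0.0484). Both calls were near the threshold. With 1 pool left out, Gfap passed in 5 of 12 fits and Dbndd2 in 3 of 12, with adjusted p-values of the same test up to 0.245. Gfap was higher in 28 m CR by 0.72 with overlapping pools and lower in 28 m AL by -1.16, where each of the 3 old pools was below each of the 3 young ones. With the 3 AL pools that carried cerebellar RNA left out, the values were 1.625 and 1.40. Neither passed there, but 28 m AL then held 1 library, so the part of those pools in the difference was not tested. Across the 13 groups, Gfap was at 578 to 701 CPM in 12 m AL, so that 28 m AL, at 140 to 203 CPM, held the lowest pools of the series. Both differences rest on the 28 m AL label, which was taken as given.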

How the results depend on the processing

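Of the 9 genes called between 6 and 28 months of CR, all 9 were also called with RLE size factors, DESeq2, no filter, a filter within the libraries fitted, Rn28s left out, edgeR's exact test and the 9 CR libraries of 3 ages in one fit. The number called was 106 with no filter (49 higher, 57 lower), 33 by edgeR's exact test, and 15 with all 13 groups in one fit, of which 7 were among the 9. It was 5 with at least 10 counts in every library, where RT1-Db1, RT1-Bb and the unnamed gene were no longer tested and the second Hspa1b identifier no longer passed. Leaving out 1 pool gave 7 to 20. For the interaction, 2 genes were called in the main fit, 28 by DESeq2, 128 with no filter and 36 with all 13 groups in one fit. The interaction count was 0 with AL pools 2, 7 and 9 left out, an alternative chosen after seeing the data that kept 1 library of 28 m AL, assumed to vary like the other groups, and 0 to 19 with 1 pool left out. The cause of these moves was not tested. No direction of a named gene that passed was reversed under any alternative run. No paired analysis was possible because the pool numbers in the labels are not shared between groups. The class II genes held only 9 to 43 reads in each young pool, so smaller changes in genes at this level may have been missed. The unnamed gene passed at a log2 fold change of 2.47 on 6 to 16 reads in each young pool. The smallest change detectable at this depth was not tested.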
